A study of Arabidopsis thaliana with 8 samples.

Results

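Of 4788 Arabidopsis thaliana probe sets with measurable signal in rosettes, 83 (1.73%) were brighter on every array of the stomatal mutant yda-2 than on any array of wild type (WT). This account describes 74 of them, left after the probe sets of 9 genes (CHI, OSM34, CCS, AT1G09500, AT2G05540, AT1G30700, AT4G37520, AT4G33420 and AT1G22690) were set aside. The 74 were chosen from the 8247 probe sets on the array that are not array controls, by a mean signal of at least 100 over the 8 arrays and a lowest yda-2 signal above the highest WT signal. They were therefore selected on the genotype contrast itself, and their differences are given as a description. Values of the fit over all probe sets are printed for members where they passed or came nearest, and support nothing here. The opposite pattern, all yda-2 signals below all WT signals, was held by 31 probe sets (0.647%).

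YODA is a MAP kinase kinase kinase, a protein that starts a chain of phosphorylation below receptors in the leaf epidermis. The cascade limits how many epidermal cells enter the lineage that makes stomata, the pores of the leaf, and the same kinase acts in embryo patterning and in immune signalling. Loss of YODA gives clustered stomata and small plants.

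Both groups were soil-grown plants kept under constant light at 22 °C, and the aerial parts were taken as rosettes that had not yet bolted. The control group was wild type, and the other group carried the mutant allele yda-2. The sources used here give neither the molecular lesion of yda-2 nor the plants' ages. Each group had 4 Affymetrix AtGenome1 arrays, 1 per biological replicate, with replicates from separate growth and harvest times, and the WT and yda-2 arrays of the same number are called a pair.

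The values were signal intensities scaled by the submitters to a target of 500 per array. Array medians lay between 125.7 and 190.3, and the highest signal lay between 22519 and 33920 on the arrays of replicates 1 and 2 and between 6226 and 10422 on those of replicates 3 and 4. A total of 23 of the 74 probe sets (31.1%) had exactly 1 gene in the platform annotation, against 2035 of the 4788 tested (42.5%), and the other 51 had none and are given by probe set identifier. Of the 10 leaf mesophyll markers, RCA, which encodes Rubisco activase, was the one named on the array. Its signal averaged 12244 ± 9835 on WT arrays against 9322 ± 9085 on yda-2 arrays (SD, n = 4). Replicates 1 to 4 read 18106, 22444, 7590 and 837 in WT and 19368, 14655, 1549 and 1717 in yda-2. The means rest mostly on replicates 1 and 2 in both genotypes. Markers of guard cells, other epidermis, trichomes, vasculature, roots, flowers and senescing leaves had no named probe set (0 of 8, 6, 4, 6, 5, 6 and 3 genes), so a shift in the mix of cell types was not measured. In RNA from whole rosettes, more cells of a type and more transcript per cell cannot be told apart. YODA itself was not analysed here, so the labels were not checked against the mutated gene.

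The named genes are described by role, a grouping made after the genes were known and given no test. Fold changes are differences in log2(signal + 16) between yda-2 and WT, which understates differences of dim probe sets. SE is limma's moderated standard error from the fit without the pairing. It draws on the spread of all tested probe sets at like brightness, so it is not the spread of that probe set alone.

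AT2G38870 encodes an inhibitor of the potato type I family, small proteins that block serine proteases and accumulate in defence. Its signal was 748, 839, 981 and 706 in WT replicates 1 to 4 and 1260, 2042, 1630 and 1414 in yda-2 replicates 1 to 4. The dimmest yda-2 array was replicate 1, still clear of the brightest WT array, replicate 3. Mean signals were 819 ± 122 and 1586 ± 340 (SD, n = 4), a ratio of 1.94, and the log2 fold change was 0.93 (SE 0.24).

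AT1G54010 encodes a GDSL lipase-like protein of the myrosinase-associated group, part of the glucosinolate defence system of the cabbage family. WT arrays read 204, 97.8, 212 and 198, and yda-2 arrays read 290, 454, 346 and 227. The groups did not overlap, but WT replicate 2 was far below the other WT arrays, and the log2 fold change of 0.84 (SE 0.32) was 0.60 without it.

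UGT87A2 encodes a UDP-glycosyltransferase, an enzyme that attaches sugars to small molecules, and has been linked to flowering time. Its WT signals were 302, 464, 293 and 345, and its yda-2 signals were 542, 468, 845 and 711. Replicate 2 held both the brightest WT and the dimmest yda-2 array, only just apart, and the log2 fold change was 0.83 (SE 0.26).

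The serine carboxypeptidase-like gene scpl31 belongs to a family of hydrolases, some of which act as acyltransferases in specialised metabolism. It was dim in WT, at 65.6, 100.3, 81.2 and 66.5, and read 124, 179, 139 and 235 in yda-2. The groups were separate, with a log2 fold change of 0.95 (SE 0.33), and its WT mean of 78.4 was below 100, so it passed the signal filter through the yda-2 arrays. Across these 4 genes the log2 fold changes lay between 0.83 and 0.95, and 3 of the 4, all but AT1G54010, still had separate groups after the arrays were rescaled by median centring and by quantile normalization.

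The second group of genes encodes cell wall and glycine-rich proteins, with log2 fold changes between 0.40 and 0.74 in 5 genes. TBL37 belongs to the TRICHOME BIREFRINGENCE-LIKE family, whose characterised members add acetyl groups to wall polysaccharides. WT arrays read 312, 348, 275 and 296, and yda-2 arrays read 458, 434, 627 and 604. All WT values lay within a narrow band, the groups were well apart, and the log2 fold change was 0.74 (SE 0.23). AT1G27090, which encodes a glycine-rich protein, read 289, 170, 253 and 258 in WT and 422, 312, 301 and 333 in yda-2. Its log2 fold change of 0.48 (SE 0.26) was 0.33 without WT replicate 2, the low WT array. FRA3, an inositol polyphosphate 5-phosphatase needed for secondary walls of fibres, had means of 90.9 ± 16.6 and 154 ± 59.7 (SD, n = 4). AT1G23040, which encodes a hydroxyproline-rich glycoprotein, had means of 739 ± 84.9 and 979 ± 131. AT4G21620, another glycine-rich protein, had means of 951 ± 112 and 1381 ± 508, and its yda-2 spread came from replicate 4, at 2140.5 against at most 1194.6 in the other 3. TBL37 was the member of this group that kept its groups apart under both rescalings.

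Stress and metal response held 3 genes. AT4G22820 encodes a zinc finger protein with A20 and AN1 domains, a class that in rice responds to many stresses. It was among the brighter named genes, at 1381, 1079, 1119 and 1122 in WT and 1874, 1384, 1797 and 1677 in yda-2. The gap between WT replicate 1 and yda-2 replicate 2 was 1380.5 against 1384.4, so the separation was nearly nil while the log2 fold change was 0.51 (SE 0.22). DI21, a drought-induced transcript, read 332, 187, 445 and 410 in WT and 525, 500, 499 and 474 in yda-2. The yda-2 arrays were close together and the WT arrays spread widely, and the log2 fold change of 0.59 (SE 0.28) became 0.33 without WT replicate 2. CUTA, a copper-binding protein of the chloroplast, had a log2 fold change of 0.28, with means of 480 ± 39.9 and 587 ± 49.1 (SD, n = 4). None of the 3 kept its groups apart under both rescalings.

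Genes of translation and transcription had the smaller differences, with log2 fold changes between 0.25 and 0.52 in 6 genes. AT4G26060, of the ribosomal protein L18ae family, read 267, 296, 320 and 267 in WT and 425, 361, 442 and 405 in yda-2. The groups were clearly apart, with a log2 fold change of 0.48 (SE 0.22), and it was the member of this group that stayed separate under both rescalings. The ribosomal protein genes AT2G19730 (L28e) and AT4G02230 (L19e) differed by 0.34 (SE 0.23) and 0.25 (SE 0.21) on the log2 scale, with means of 1826 ± 298 against 2293 ± 235 and 759 ± 20.2 against 911 ± 149 (SD, n = 4). AT2G40290, the alpha subunit of initiation factor eIF2, which sets the rate of translation start when phosphorylated, differed by 0.40 (SE 0.22), at 399.9 ± 42.8 against 533 ± 70.5. AT5G26760, RIMA, which acts with RNA polymerase II, differed by 0.36 (SE 0.28), and AT2G31730, a basic helix-loop-helix transcription factor, by 0.52 (SE 0.32). In both, WT arrays were close together, at 173 ± 7.60 and 116 ± 5.34, and yda-2 arrays were spread, at 233 ± 69.9 and 181 ± 65.5.

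AT4G32160, which encodes a protein with a PX domain that binds phosphoinositide lipids of membranes, had the greatest log2 fold change among named genes, 1.16 (SE 0.41). It read 98.3, 34.4, 92.4 and 94.7 in WT and 204, 318, 111 and 171 in yda-2. WT replicate 2 was the lowest WT array and yda-2 replicate 2 the highest yda-2 array, and the value was 0.88 without WT replicate 2. AT4G39140, a RING finger protein of the class that attaches ubiquitin, differed by 0.25 (SE 0.26), at 156 ± 15.7 against 188 ± 3.26 (SD, n = 4).

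No role is given here for 3 named genes. AT2G35820 read 281, 239, 324 and 349 in WT and 490, 350, 564 and 470 in yda-2, separated by 348.7 against 349.7. AT1G03290 read 167, 187, 179 and 142 in WT and 231, 292, 289 and 233 in yda-2, with a clear space between the groups. Their log2 fold changes were 0.62 (SE 0.25) and 0.58 (SE 0.25), and both stayed separate after both rescalings. For AT1G03290 the space was 0.28 on the log2 scale as deposited, 0.01 after median centring and 0.06 after quantile normalization. For AT2G35820 it was 0.00, 0.18 and 0.16. AT2G07000 differed by 0.45 (SE 0.25), at 209 ± 39.3 against 288 ± 36.2 (SD, n = 4).

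**Figure D1:**
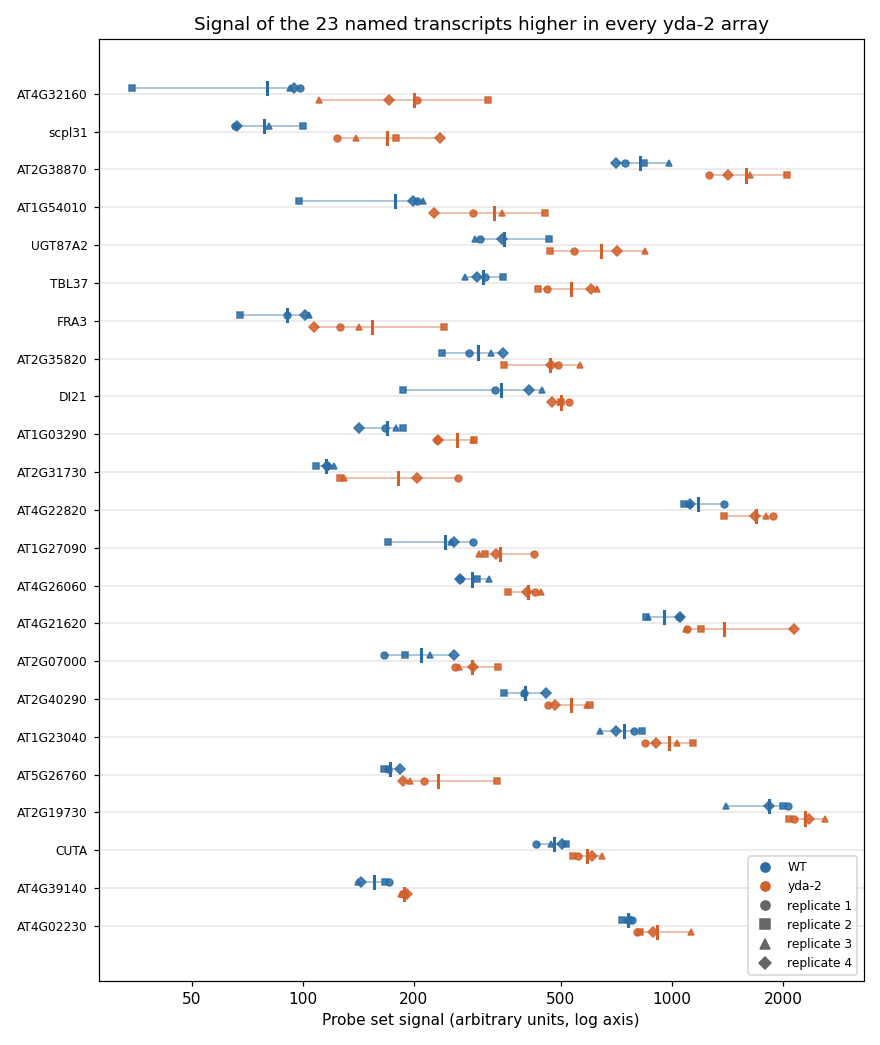
Probe set signal on a log axis for the 23 named genes, ordered by log2 fold change, with WT in blue, yda-2 in orange, a marker shape per replicate and a vertical bar at each group's mean. Each gene's yda-2 points lie to the right of its WT points because the genes were chosen that way, and the gap is wide for AT2G38870 and TBL37 and nearly nil for AT4G22820 and AT2G35820.

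Among the 74, the larger differences were in probe sets without a gene name. This split depends on the rule, which set aside 9 genes that all have names. Of those, OSM34 and CHI had log2 fold changes of 2.29 and 1.44, and CCS had 0.96. Log2 fold changes lay between 0.30 and 3.38 in the 51 unnamed probe sets, with a median of 0.94, and between 0.25 and 1.16 in the 23 named ones, with a median of 0.51. A log2 fold change of at least 1 was found in 24 unnamed and 1 named probe set, and 7 unnamed and 11 named ones were under 0.5.

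The probe set 16614_s_at read 21.2, 25.7, 6.9 and 3.4 in WT and 382, 228, 193 and 383 in yda-2. It was near the bottom of the signal range in every WT array, far below every yda-2 array, and its log2 fold change was 3.38 (SE 0.43). That size rests on the pseudocount of 16, which is close to the WT signals, and was 4.57 with a pseudocount of 1 and 2.17 with one of 64. The probe set 16888_at read 131, 69.2, 95.9 and 64.2 in WT and 421, 379, 420 and 414 in yda-2. Its yda-2 arrays were close together and the log2 fold change was 2.04 (SE 0.28). In these 2 alone among the 74, the dimmest yda-2 array exceeded the brightest WT array by more than 1 in log2(signal + 16).

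The probe set 20269_at read 97.2, 134, 89.6 and 103 in WT and 292, 254, 475 and 360 in yda-2, and 14978_at read 184, 171, 237 and 207 against 637, 376, 951 and 576. In both, yda-2 replicate 2 was the dimmest yda-2 array and replicate 3 the brightest, with log2 fold changes of 1.54 (SE 0.29) and 1.53 (SE 0.29).

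The probe set 19171_at read 466, 289, 1070 and 764 in WT and 1481, 1673, 2392 and 2512 in yda-2. Both genotypes were brighter in replicates 3 and 4, and the log2 fold change was 1.74 (SE 0.38). The probe set 17876_at read 1554, 995, 858 and 1538 in WT and 2379, 2994, 3690 and 2587 in yda-2, with a log2 fold change of 1.25 (SE 0.28). The WT arrays were in separate pairs there, replicates 1 and 4 above 2 and 3, and the yda-2 arrays did not share that order.

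The other 45 unnamed probe sets ranged from 12989_at, with means of 74.0 in WT and 126 in yda-2, to 18565_i_at and 20491_at among the brightest. The probe set 20491_at read 1735, 1950, 1819 and 797 in WT and 5827, 2409, 3383 and 4139 in yda-2, and WT replicate 4 stood below the other WT arrays. The probe set 18565_i_at read 2667, 1815, 2062 and 2647 against 2879, 2807, 3903 and 3881, with groups only just apart. Neighbouring identifiers 16347_at and 16348_at had similar log2 fold changes, 0.76 and 0.77, and the files do not say whether they report the same gene.

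Over all 74, the log2 fold change lay between 0.25 and 3.38 with a median of 0.79, against 0.02 over all tested probe sets. Many probe sets with a large difference lay outside the set: 74 tested probe sets (1.55%) had a log2 fold change of at least 1, of which 25 were among those described here and 42 had overlapping groups. In 31 of the 74 the value lay from 0.5 to 1, and in 18 below 0.5.

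The set was of moderate brightness. Mean signals over the 8 arrays lay between 100.2 and 2832 with a median of 331, against a median of 419 over all tested probe sets. The brightest member was dimmer than 490 tested probe sets (10.2%). In 22 members the mean was below 200, and in 13 it was at least 1000. A total of 15 members had a WT mean below 100 and reached the filter through yda-2, so a difference in that direction was built into their inclusion.

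Members sat close to the edges of the definition. The 3 just inside the brightness limit were 12989_at, 18930_at and 20421_at, with means of 100.2, 103 and 111. Just outside it were AT2G18770, ATG8B and AT4G23050, with means of 99.8, 98.4 and 97.6, whose groups were also separate. Besides AT2G35820 and AT4G22820, the closest separation inside was 20566_s_at, at 478.6 in the dimmest yda-2 array against 475.8 in the brightest WT array. The nearest misses were 17973_s_at at 236.3 against 237.3, 14832_at at 3525 against 3546 and 12293_at at 663.8 against 668.5. The space between the groups had a median of 0.13 on the log2 scale, and it was under 0.1 in 34 members and over 0.5 in 7.

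That space depended on how the arrays were scaled. After each array was centred on its median 41 of the 74 still had separate groups, after quantile normalization 41 did, and 35 did under both. Of the 4788 tested probe sets, with the 9 genes set aside, the rule gave 58 after centring and 61 after quantile normalization. Some probe sets separate after rescaling were therefore not among the 74. Of these 35, 7 were named (AT2G38870, TBL37, UGT87A2, scpl31, AT2G35820, AT1G03290 and AT4G26060) and 28 were not. Among the 7 the space was smallest in AT1G03290, at 0.01 after centring. Under both rescalings 21 of the 25 members with a log2 fold change of at least 1 stayed separate, 12 of the 31 from 0.5 to 1, and 2 of the 18 below 0.5. The mean differences moved less: all 74 kept a log2 fold change above 0 under both, with medians of 0.75 and 0.72. Median centring moves every log2 fold change by the same amount, and took the smallest from 0.25 to 0.20. It could therefore not reverse a sign.

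**Figure D2:**
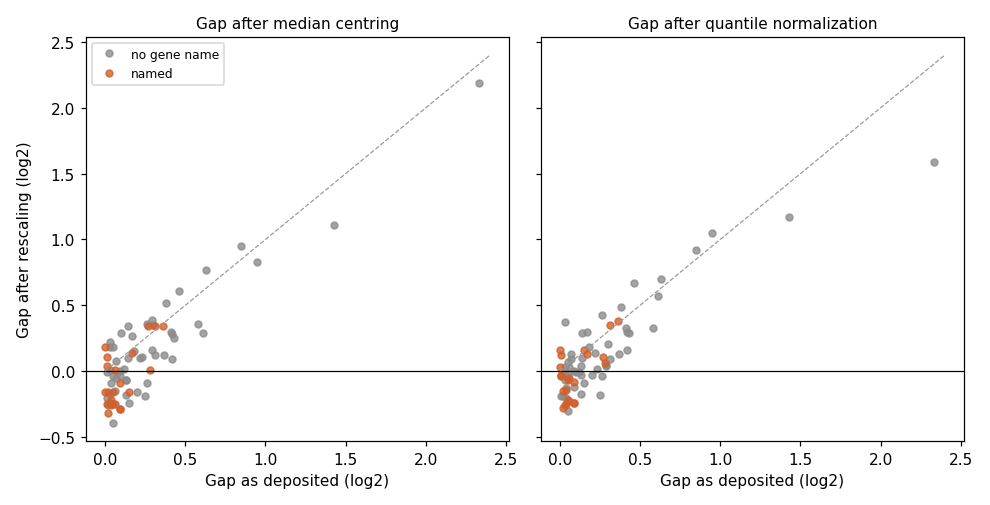
Space between the dimmest yda-2 and the brightest WT array of the 74 probe sets, on the log2 scale, as deposited (horizontal axis) against after median centring (left) and after quantile normalization (right), with named genes in orange, others in grey and a dashed line of equality. Points under the horizontal line at 0 are the probe sets whose groups overlap after rescaling, and 41 lie above it in each panel.

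The pairs did not contribute equally. The median difference within a pair over the 74 members was 0.62, 0.82, 0.68 and 0.57 for pairs 1 to 4, against 0.06, -0.05, 0.01 and 0.06 over all tested probe sets. Pair 2 gave the largest difference in 34 members (45.9%), against 31.3% of tested probe sets. WT replicate 2 was the dimmest WT array in 35 members (47.3%), against 32.2% of tested probe sets. It was the brightest WT array in 14 of the 74 members, against 33.9% of tested probe sets. The rule drops probe sets where a WT array is bright enough to overlap, so nothing is read from these shares.

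Without WT replicate 2 the median log2 fold change of the 74 was 0.63 in place of 0.79, and 7 members fell by a factor of more than 1.5. The 7 were 17899_at (1.72 to 0.98), 18051_r_at (0.87 to 0.56), 13671_at (0.91 to 0.59), DI21 (0.59 to 0.33), 20405_at (1.04 to 0.39), 12957_s_at (0.86 to 0.43) and 16633_s_at (0.96 to 0.36). Without that array the log2 fold changes of all 74 lay between 0.23 and 3.56.

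**Figure D3:**
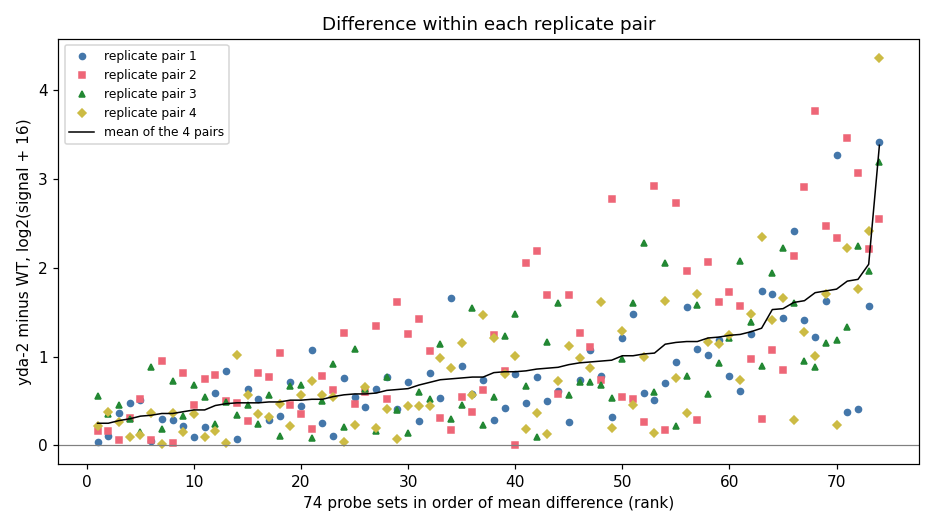
Difference between yda-2 and WT in log2(signal + 16) within each replicate pair, for the 74 probe sets in order of mean difference, with a symbol per pair and a line for the mean of the 4 pairs. All points lie above 0 by the choice of probe sets, and pair 2 is the highest point in 34 of them.

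The arrays of replicates 1 and 2 and those of 3 and 4, which differed in signal range, were also taken separately. The labels do not group the replicates this way, and the rule fixes the sign of the differences within each. Within replicates 1 and 2 the median log2 fold change was 0.76 against 0.01 over all tested probe sets, and within replicates 3 and 4 it was 0.65 against 0.03. In 39 members the difference was larger in replicates 1 and 2. The rule favours probe sets that vary little between replicates. The difference of replicates 1 and 2 minus replicates 3 and 4, over both genotypes, lay between -0.95 and 0.56 on the log2 scale, and 0 of the 74 went beyond 1 in either direction, against 11.8% of tested probe sets.

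In limma's fit over all 4788 probe sets without the pairing, with Benjamini-Hochberg adjustment, 2 probe sets (0.0418%) passed an adjusted p of 0.05, both higher in yda-2 and both members, 16614_s_at (adjusted p = 0.0286) and 16888_at (adjusted p = 0.0340). With the pair as a block in limma, 9 probe sets (0.188%) passed, all higher in yda-2. Of these 9, 5 were members: 16614_s_at, 16888_at and 19171_at (adjusted p = 0.0333 each) and 14978_at and 16053_i_at (adjusted p = 0.0436 each). Both fits made 0 calls after median centring or quantile normalization, where 174 and 198 probe sets without the block, and 341 and 360 with it, had an unadjusted p under 0.05 in limma. The fit without the block also made 0 calls with a pseudocount of 1 or a mean signal of at least 200 (152 and 122 unadjusted). Leaving out 1 array left 2 calls without WT replicate 1, 1 without WT replicate 2 and 0 without any of the other 6 arrays (104 to 165 unadjusted in limma). With the block, 0 calls were made without pair 1, 3 or 4 (247 to 320 unadjusted in limma), and 28 without pair 2. Since the rule used this contrast, nothing is read from the members' share of the calls. In limma 0 of the 23 named genes passed in either fit, where 10 had an unadjusted p under 0.05 without the block and 12 with it. Over all tested probe sets 154 (3.22%) and 340 (7.10%) had one, and nothing is read from the named genes' share, since the rule used the same contrast. The smallest blocked adjusted p among them in limma was 0.125, for AT2G38870. CHI, a named gene set aside by the rule, passed in limma with the block (adjusted p = 0.0333).

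Some named genes had other probe sets outside the set. These also passed the signal filter, and the rule left them out because their groups overlap. Their overlap is therefore not a separate check. AT4G32160 had a second probe set, 14879_g_at, which read 175, 175, 180 and 184 in WT and 234, 119, 199 and 231 in yda-2. In pair 2, where the first probe set had its greatest difference, the second was lower in yda-2. Its groups overlapped, and the log2 fold change was 0.08 (limma, blocked adjusted p = 0.945) against 1.16 for the first.

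DI21 had a second probe set, 18231_at, which read 129, 204, 171 and 204 in WT and 217, 162, 290 and 260 in yda-2. It was higher in yda-2 in 3 of 4 pairs, with overlapping groups and a log2 fold change of 0.35 (limma, blocked adjusted p = 0.790) against 0.59. The eIF2 alpha gene AT2G40290 had probe sets 19163_at and 20630_i_at beside its member 19164_g_at. Their log2 fold changes were 0.13 and 0.23 against 0.40, both with overlapping groups and neither passing in limma (smallest blocked adjusted p = 0.830). In these 3 genes the 4 other probe sets had smaller differences of the same sign. Their overlap follows from the rule, and the members beside them were chosen for their difference. Neither result is therefore a check on the members.

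**Figure D4:**
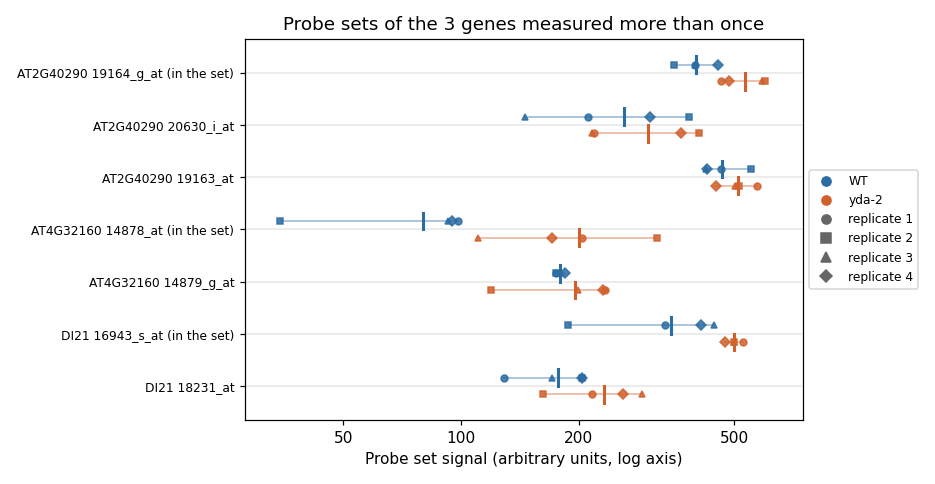
Signal on a log axis of each probe set of the 3 genes measured more than once, with WT in blue, yda-2 in orange, a marker shape per replicate and a vertical bar at each group's mean. The 3 probe sets marked as in the set have separate groups by choice, and the other 4 overlap, which is why the rule left them out.

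Relatives of the named genes were mixed in direction. The families were picked after the members were known. Of 9 other tested UGT probe sets, 3 were above 0 and 6 below, with a median log2 fold change of -0.20. They ran from UGT84A4 at -0.90 to UGT74D1 at 1.02, which were -0.43 and 0.57 without WT replicate 2. Of 5 other TBL probe sets 1 was above 0, TBL39 at 0.54, and the median was -0.14. Of 5 other serine carboxypeptidase-like probe sets 4 were above 0, with a median of 0.05, and of 3 other A20/AN1 probe sets 2 were, with a median of 0.14. In limma 0 of these 22 probe sets passed in either fit, with a smallest blocked adjusted p of 0.547, and 2 had an unadjusted p under 0.05 without the block and 3 with it (9.09% and 13.6%, against 3.22% and 7.10% of all tested probe sets). Relatives of AT2G38870 and AT1G54010 on the array, AT3G46860 and AT1G54020, were under the signal filter.

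The 14 gene lists on defence, stress, hormones, walls, photosynthesis and the stomatal pathway held none of the 74. The annotation names few of their genes, with 0 to 9 tested probe sets a list. In limma's fit with the block 1 of these probe sets passed, that of CHI, which the rule leaves out, and without the block 0 passed. Of their 29 tested probe sets, 8 had an unadjusted p under 0.05 in limma without the block and 12 with it (27.6% and 41.4%, against 3.22% and 7.10% of all tested probe sets). These include probe sets of CHI, OSM34 and CCS, which were separate between the groups and set aside by the rule. The lists were chosen with earlier results of these data known, so nothing is read from these shares. Among the genes of these lists, WRKY53, a regulator of defence and leaf senescence, averaged 636 ± 426 on WT arrays against 606 ± 346 on yda-2 arrays (SD, n = 4), and its groups overlapped. STOMAGEN, a peptide that promotes stomata, was at 374 ± 198 and 389 ± 29.9. Log2 fold changes above 0 were found for AT4G33150 (1.72), which breaks down lysine, for WES1 and GH3.3 (0.89 and 0.83), which conjugate auxin to amino acids, and for WRKY6 (0.71). Below 0 were the cold-response gene COR15B (-1.24), LHCB4.3 of the light-harvesting antenna (-1.08), the expansin EXPA8 (-0.79) and PRL, a factor of DNA replication (-0.62), and none of these 8 genes passed in limma's fit with the block (adjusted p from 0.119 to 0.703). The photosynthesis list, the best covered with 9 probe sets, had a median log2 fold change of -0.27.

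The suffix of the identifier, which records how the probes were chosen, was _at in 66.2% of members and 71.9% of tested probe sets. It was _s_at, used for probes shared by similar sequences, in 24.3% and 20.8%, and _i_at in 5.41% (4 members) and 2.32%. It was _g_at in 2 members, _r_at in 1 and _f_at in 0. The named members lay on chromosomes 1 (6 genes), 2 (9), 4 (7) and 5 (1), which hold 22.4%, 36.5%, 30.8% and 4.52% of the tested 1-gene probe sets, and 0 lay on chromosome 3, which holds 5.65%.

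Of 3 measures from the array controls, 2 differed in the same direction in every pair. The 9 spiked control probe sets, RNAs added at fixed amounts, had a mean log2 signal of 10.38 ± 0.95 on WT arrays (SD, n = 4), and the yda-2 arrays differed from it by -0.39, with an SD of 0.89. After median centring the means were 10.41 and 9.98. They were lower in yda-2 in 4 of 4 pairs (exact sign-change test over 16 changes, two-sided p = 0.125, the smallest it can give; exact permutation test over 70 assignments, p = 0.514). The log2 ratio of 3′ over 5′ ubiquitin probe sets, a measure of RNA integrity, averaged -0.45 ± 0.41 on WT arrays against -0.11 ± 0.52 on yda-2 arrays (SD, n = 4), higher in 4 of 4 pairs (exact sign-change p = 0.125, exact permutation p = 0.343). The same ratio for GAPDH differed by 0.03 (exact permutation p = 1). Their part in the members' differences was not tested.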

How the data were processed

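Per the labels, the authors hybridized labelled total RNA to Affymetrix AtGenome1 arrays and set the average signal of each to 500. What they deposited is 1 signal intensity per probe set and array, on a linear scale, without detection calls, and the summary algorithm is not given in the sources used here. Of 8297 probe sets, 50 controls were left out. Signals were taken as log2(signal + 16), and the 4788 probe sets with a mean of at least 100 were fitted with limma 3.58.1 in R 4.3.3 (lmFit, eBayes with trend, two-sided, Benjamini-Hochberg, threshold 0.05). On simulated data with 200 of 4788 probe sets changed, this fit without the block found 19.3% of those changed 2-fold and 73.8% of those changed 4-fold. False calls were 3.94%. The folds are those of signal + 16. The simulated noise was normal and independent between arrays, without the deviations that real replicates share or differences in array range. The rates therefore hold for that setting and not for the real arrays.

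The members, gene lists and families were chosen with earlier results of these data known. The labels say that replicates differ in growth and harvest time, and the numbers were taken to pair the arrays. The deviations of same-numbered arrays from their group means correlated at 0.596, 0.296, 0.324 and 0.577. Differently numbered arrays are not given for comparison, so these values cannot show that the arrays pair by number. Names come from the platform annotation (3794 probe sets with 1 gene, 70 with several, 4383 with none), of which 3784 matched TAIR10.1. Arrays in full are given for the 12 named and 6 unnamed members with the largest fold change over its standard error, and other genes by name where a limit, list or family called for it. Genes named beyond that were chosen after their values were seen. The number of arrays limits the precision. Promoter sequences were not analysed here. Alternatives covered pseudocounts, filters, normalization, the trend, array weights, the block, and left-out arrays and pairs. Figures were drawn with matplotlib 3.10.9.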

Additional observations from a re-analysis of the deposited data

Results flagged for a closer look

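Among the 148 groups of 4 arrays (74 probe sets in each genotype), 14 had an array far from the other 3 on the log2 scale, where chance flags about 1 in 20 groups. That rate is for groups not chosen by their values, and these were. WT held 10 of them and yda-2 held 4. In 7 of the 14 the array was WT replicate 2, and it was the lowest each time. The rule keeps a probe set with a low WT array and drops one where a WT array is high enough to overlap. Over all tested probe sets this array was the highest WT array in 33.9% and the lowest in 32.2%. Those 7 were 14663_s_at at 25.6 (other WT arrays 66.6 to 77.8), AT4G32160 at 34.4 (92.4 to 98.3), 13671_at at 150.2 (371.4 to 394.8), AT1G54010 at 97.8 (198.4 to 212.0), 20405_at at 31.7 (229.0 to 305.4), 12957_s_at at 20.2 (92.0 to 109.5) and 16633_s_at at 8.2 (99.2 to 120.3). The part of that array in the members' differences is given above by the values without it.

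WT replicate 4 was low in 20491_at, at 797.1 (1735.2 to 1950.0), and high in 19896_s_at, at 1965.2 (1672.9 to 1702.5). WT replicate 1 was high in AT4G22820, at 1380.5 (1079.3 to 1122.1). In yda-2, replicate 2 was low in 16888_at, at 378.7 (413.7 to 420.5), replicate 1 was low in 20421_at, at 69.6 (194.8 to 232.6), replicate 3 was high in 20405_at, at 439.8 (334.0 to 343.8), and replicate 4 was high in AT4G21620, at 2140.5 (1090.1 to 1194.6).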

How the results depend on the processing

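The rule gave 74 probe sets, 52 with a mean of at least 200, 61 after quantile normalization, 58 after median centring and 114 with no filter. It gave 103 to 160 when 1 array was left out, which loosens the rule, and 31 in the opposite direction, an alternative chosen after the data were seen. A looser rule that used the pairing as a replicate block, yda-2 higher within every pair, gave 442. The number of limma calls, 2 without the block, was 9 with the replicate block, 11 with array weights (10 higher in yda-2 and 1 lower), 3 with no trend, 2 with a pseudocount of 64 and 1 with no filter. It was 0 with a pseudocount of 1, with a mean of at least 200, and after quantile normalization or median centring, where the unadjusted p was under 0.05 for 152, 122, 198 and 174 probe sets. It was also 0 with the block after median centring or quantile normalization (341 and 360 unadjusted). Leaving out 1 array gave 0 to 2 calls, and leaving out 1 pair with the block gave 0 to 28 of the 4788 probe sets. The 28 came without pair 2 (23 higher in yda-2, of which 8 were members, and 5 lower). The rule used the same contrast, so nothing is read from the members' share. The members' median log2 fold change of 0.79 was 0.65 with a pseudocount of 64, 0.65 in replicates 3 and 4, 0.63 to 0.83 with 1 array left out and 0.65 to 0.83 with 1 pair left out. The causes of these changes were not tested. Of 1680 values of single members under the alternatives, 6 moved by more than the SD of their pairs and 0 reversed. Except after quantile normalization, that sign was fixed in advance. Median centring moves every log2 fold change by the same amount, and took the smallest from 0.25 to 0.20, so none could reverse. The planned comparison of promoter motifs was not run. With 4 arrays a group and no detection calls, signals near the bottom of the range carry no bound on presence.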
